A study of Mus musculus with 2 samples.

Results

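Hox genes were examined in cells sorted from mouse embryos, and the members were the 38 genes of the 4 Hox clusters named in a given list, taken from every probe set whose annotation gave exactly 1 symbol equal to a listed gene. Of these 38 genes, 33 had such a probe set, 48 probe sets in all, among 18193 genes represented in this way on the array. The embryos carried the Col2a1-Venus transgene on a C57Bl/6 background, so that Venus, a modified green fluorescent protein, labels chondrocytes, the cells that make cartilage. Fluorescence sorting divided the cells of transgenic embryos into those with Venus (Venus-positive) and those without it (Venus-negative), and RNA from either fraction was hybridised to 1 Affymetrix mouse expression array. The labels name the tissue as embryo; its age, the number of embryos and the sorting gates were not given in the sources used here. Venus reports activity of Col2a1 sequences, Col2a1 being the gene of the main cartilage collagen, and is not itself a record of cell type. The comparison asks how Hox genes of each cluster and position differ between the cartilage fraction and the remaining sorted cells. Because each fraction was measured once, no value has a replicate error and no p-value can be given; the differences are those between these 2 arrays.

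Hox genes encode transcription factors that bind DNA through a homeodomain and give cells their identity along the head-to-tail axis and, for the posterior members, along the limb. They lie in 4 clusters, Hoxa to Hoxd, and genes at the same place in different clusters share a paralog number. Low-numbered genes are switched on earlier and reach closer to the head, and high-numbered genes later and closer to the tail and the limb tip. In skeletal tissue they set which element forms, such as a rib-bearing vertebra, and Hoxa11 and Hoxd11 are needed for the forearm, as Hoxa13 and Hoxd13 are for the digits.

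The fractions matched their labels by marker. All 8 measured cartilage markers were at least 2-fold higher in Venus-positive cells, against 2.79% of all measured genes. Their summed signal was 38031 against 3006. Col2a1, whose sequences Venus reports, was among them. Every measured marker of leukocytes (7), skeletal muscle (6), erythroid cells (5), epithelium (7) and endothelium (6) was at least 2-fold lower. The share among all measured genes was 11.6%. Other probe sets of Laptm5, Epcam and Krt8 were within 2-fold, at log2 ratios up to -0.67, -0.93 and -0.74. The neuronal and fibroblast lists, in which not every marker reached this size, are given further on. The Venus-positive array was dimmer as a whole: its trimmed mean signal was 108 against 132, and over 11789 measured genes the log2 ratio, always Venus-positive over Venus-negative, had a median of -0.33. A gene was measured if its signal reached a floor of 22.5, the median of all signals, on at least 1 array, and lower signals were raised to that floor, so that a fold with 1 side below it is a lower bound, written "at least". Folds are on the deposited scale, and a relative log2 ratio has the median gene subtracted. Each list of lower markers held some, such as Ptprc, Myh3, Klf1, Trp63 and Plvap, that were measured through the Venus-negative array alone. Those markers could only come out lower.

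Hox RNA was mostly lower in the Venus-positive fraction, as was the median measured gene, and no member was 2-fold higher. Of the 33 represented genes 27 were measured, a share of 81.8% against 64.8% of all such genes, and 23 of these had less signal in Venus-positive cells. The median measured gene was itself at -0.33, and the share of all measured genes with less signal was not computed. Of the 23, 8 genes, Hoxc5 and Hoxd12 among them, were measured through the Venus-negative array alone. Their Venus-positive signal was below the floor, so they could only come out lower. At least 2-fold lower were 8 of the 27, against 11.6% of all measured genes, and at least 2-fold higher were 0, against 2.79% of all measured genes. Relative to the median gene 4 of the 27 were at least 2-fold lower, against 6.45% of all measured genes, and 0 were higher, against 5.06%. The median log2 ratio of the measured members was -0.66, or -0.33 relative to the median gene, and at least 19 of the 27 lay below that gene, since Hoxa13, Hoxb4 and Hoxd3, with Venus-positive signal below the floor, cannot be placed on either side of it. Medians hold 8 such bounds at their floored value and are therefore upper limits. The 4 members that reached the 2-fold size on both scales were Hoxb3, Hoxc5, Hoxd13 and Hoxc8. Of the other 4, Hoxc4, Hoxd10 and Hoxa9 passed it on the deposited scale only. Hoxd12 passed it on that scale as a bound. Its relative log2 ratio is at most -0.70, so it cannot be placed inside or outside 2-fold there. Just inside that size were Hoxa9 and Hoxd10, both 2.01-fold lower, and just outside it was Hoxa3, 1.83-fold lower. In these bulk samples, fewer cells of a type and less RNA per cell cannot be told apart.

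**Figure D1:**
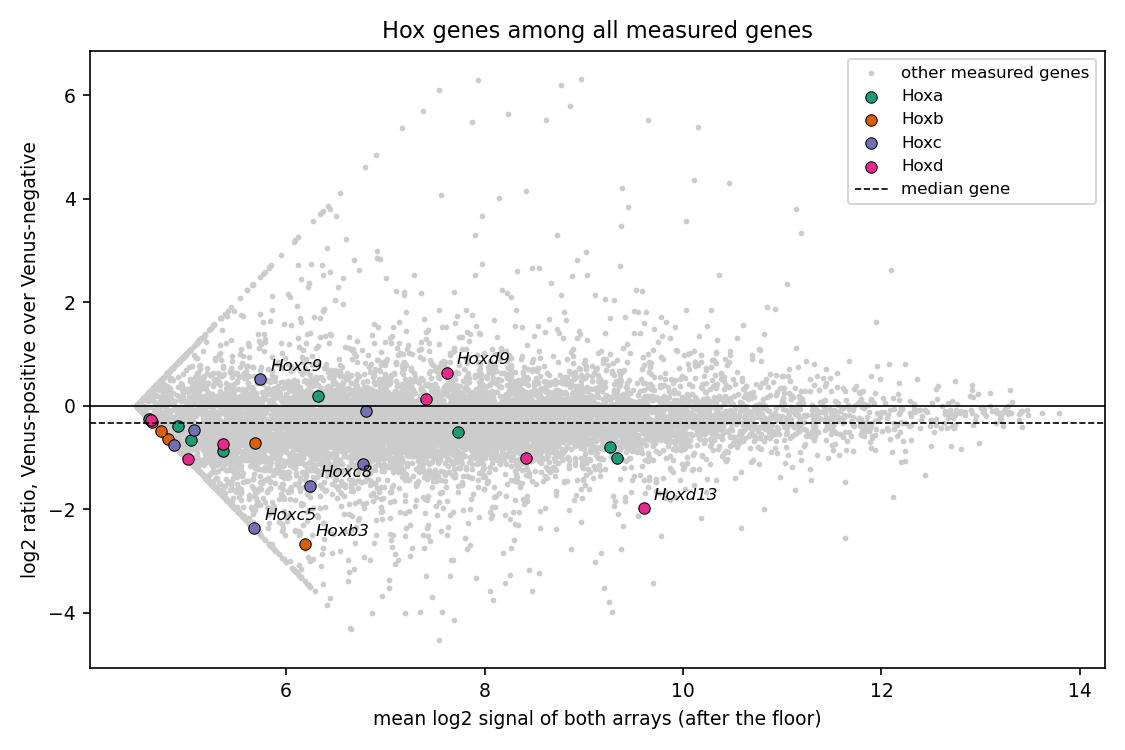
Log2 ratio, Venus-positive to Venus-negative (vertical), against the mean log2 signal of both arrays after the floor (horizontal) for every measured gene, with the 27 measured Hox genes coloured by cluster; the solid line is 0 and the dashed line the median gene at -0.33. Hoxb3, Hoxc5, Hoxc8 and Hoxd13 lie well below the dashed line, Hoxd9 and Hoxc9 above 0, and points on the slanted edges are bounds.

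**Figure D2:**
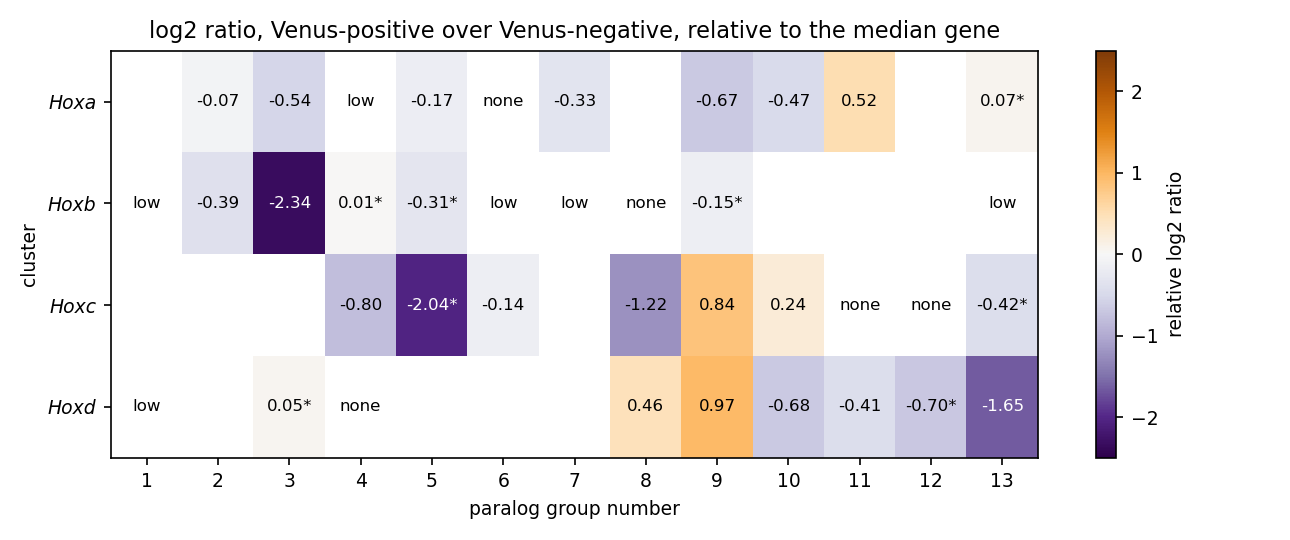
Relative log2 ratio of each Hox gene (colour and number), with clusters in rows and paralog group numbers in columns; an asterisk marks a bound with Venus-positive signal below the floor, "low" a gene below the floor on both arrays, "none" a gene without a probe set of its own, and blank cells hold no listed gene. The highest values stand at Hoxd9 (0.97) and Hoxc9 (0.84), the lowest at Hoxb3 (-2.34) and Hoxc5 (-2.04, a bound).

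The Hoxd cluster, whose high-numbered genes are known for patterning the limb, held the member with the highest ratio, Hoxd9, and also Hoxd13, among the lowest. Hoxd13, which directs digit formation, had a signal of 1545 in Venus-negative and 391 in Venus-positive cells, 3.95-fold lower. Its second probe set was at 57.2 and just under the floor, at least 2.54-fold lower, so that both probe sets had the same direction. Hoxd12, its neighbour, was at 46.0 against a signal below the floor and at least 2.04-fold lower. Hoxd11, a gene of the forearm, was at 53.1 against 31.7, 1.67-fold lower. Hoxd10 was at 484 against 240, which is 2.01-fold lower on the deposited scale and a relative log2 ratio of -0.68. The direction turned at the next gene of the cluster. Hoxd9 had 157 in Venus-negative and 245 in Venus-positive cells, 1.56-fold higher, with a relative log2 ratio of 0.97, close to but below the 2-fold size. Hoxd8, the next gene, was at 162 against 178 on the probe set used, yet its second probe set, a kind that can match several transcripts, was at 163 against 81.0 and 2.01-fold lower, so its direction is not settled. Hoxd3, a gene of the anterior trunk, was at 27.4 against a signal below the floor, at least 1.22-fold lower. Hoxd1 was below the floor on both arrays, and Hoxd4 had no probe set of its own.

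The sequences before the start sites of Hoxd13 and Hoxd9 are shown because these genes of 1 cluster stood at its lowest and highest ratios, with Hoxd12, Hoxd11 and Hoxd10 between them. Each is the 250 bases before the annotated start in RefSeq (GRCm38.p6), 5' to 3' on the gene's strand. That of Hoxd13 is at chr2:74667975-74668224 and that of Hoxd9 at chr2:74697513-74697762, both on the plus strand. Capitals mark matches on either strand to the GC box GGGCGG, the CCAAT box CCAAT, the TATA box TATAAA, the Meis and Pknox core TGACAG and a core bound by posterior Hox proteins, TTTACG.
Hoxd13: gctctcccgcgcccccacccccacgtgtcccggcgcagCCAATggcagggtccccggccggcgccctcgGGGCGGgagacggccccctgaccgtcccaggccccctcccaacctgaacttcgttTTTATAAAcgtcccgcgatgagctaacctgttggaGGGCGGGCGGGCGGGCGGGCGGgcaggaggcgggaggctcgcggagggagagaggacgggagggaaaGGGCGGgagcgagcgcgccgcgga
Hoxd9: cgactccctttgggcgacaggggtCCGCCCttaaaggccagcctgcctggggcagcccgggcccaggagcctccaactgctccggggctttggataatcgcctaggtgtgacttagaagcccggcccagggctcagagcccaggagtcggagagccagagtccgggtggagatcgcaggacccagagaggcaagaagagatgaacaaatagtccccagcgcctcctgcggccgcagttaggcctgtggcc
The Hoxd13 stretch held 7 matches to the GC box, several of them overlapping, 1 CCAAT box and an overlapping pair of TATA box matches, 1 on each strand. The Hoxd9 stretch held 1 GC box and none of the other motifs. They also differed in CG dinucleotides, with 31 in the Hoxd13 stretch and 13 in that of Hoxd9. Over the 24 such windows found for 22 of the listed Hox genes, the median was 12.5 CG dinucleotides, against 6 over all 32851 windows of the table. The GC box was in 10 of the 24 and in 32.7% of all windows, the CCAAT box in 14 and in 33.8%, and the TATA box in 4 and in 12.4%. The Meis and Pknox core was in 2 and in 15.9%, and the posterior Hox core in 1 and in 2.61%. These are matches of letters and not shown to be bound sites.

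**Figure D3:**
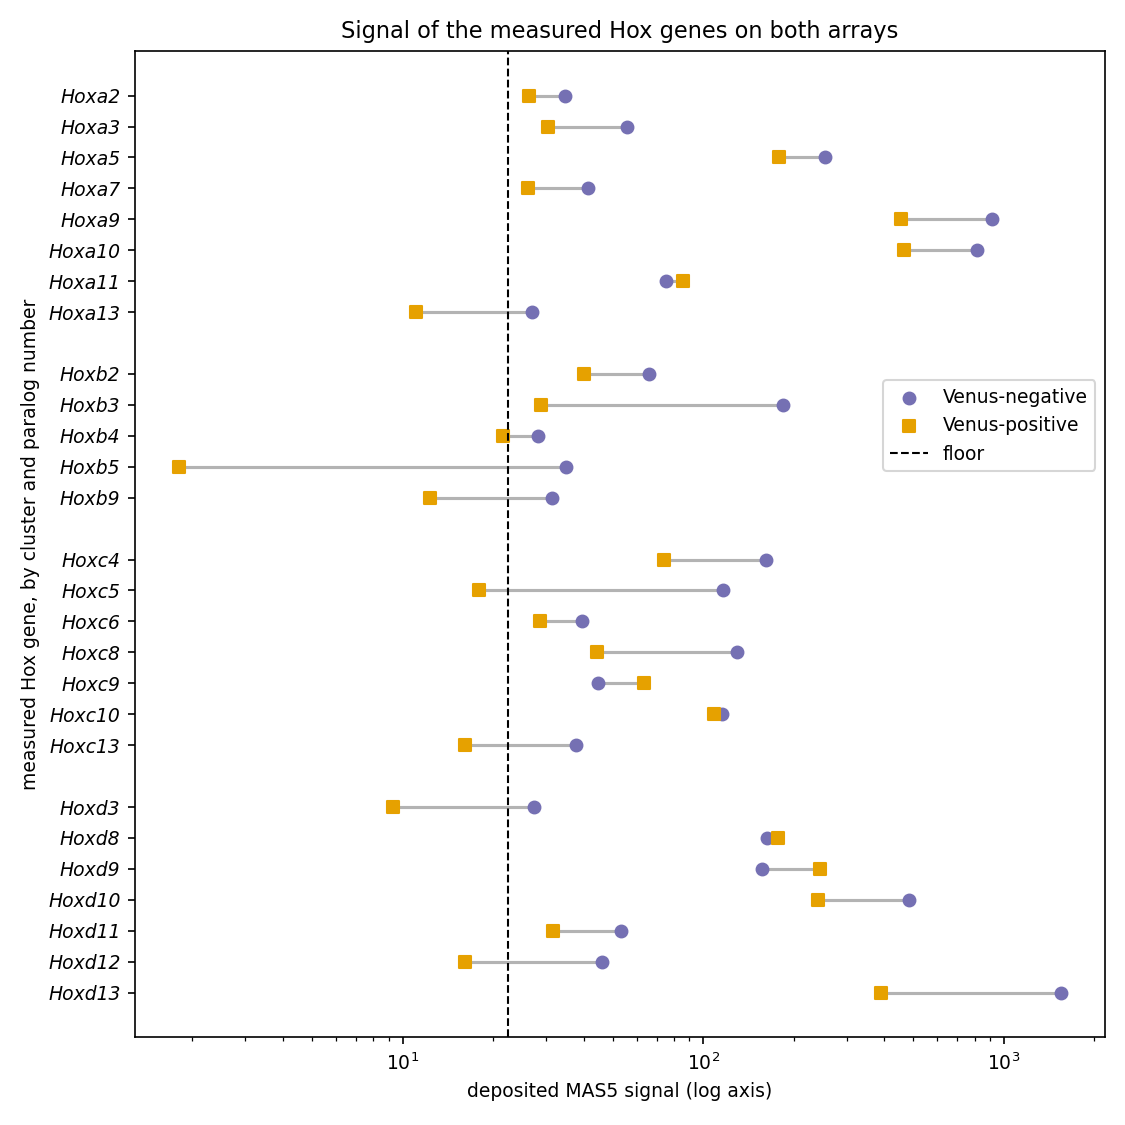
Deposited signal (horizontal, log axis) of each measured Hox gene in Venus-negative (circles) and Venus-positive cells (squares), by cluster and paralog number, with the floor of 22.5 dashed; 1 array per fraction, no error bars. The square lies right of the circle for Hoxa11, Hoxc9, Hoxd8 and Hoxd9, and left of it for the other 23 genes; positions of different genes are from different probe sets and are not to be compared as levels.

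In the Hoxa cluster most members were modestly lower, with a median log2 ratio of -0.58 over 8 measured genes, and only Hoxa9 reached the 2-fold size. The posterior Hoxa genes, which act along the limb and the lower trunk, were split. Hoxa9 was at 914 in Venus-negative and 455 in Venus-positive cells, 2.01-fold lower, whereas its second probe set was at 150 against 134. Hoxa10, a gene of the thigh and the lumbar spine, was at 815 against 466, 1.75-fold lower. Hoxa11 went the other way, with 75.1 in Venus-negative and 85.5 in Venus-positive cells, 1.14-fold higher and 0.52 above the median gene in log2 ratio. Hoxa13, the Hoxa gene of the digits, was at 26.9 against a signal below the floor, at least 1.20-fold lower. The 4 measured genes with lower numbers were all lower, by less than 2-fold. Hoxa5, needed for lung and shoulder girdle, was at 253 against 179, 1.42-fold lower, and its second probe set gave 1.41-fold. Hoxa7 was at 41.2 against 26.1, 1.58-fold lower. Hoxa3, a gene of the throat organs, was at 55.6 against 30.4, 1.83-fold lower. That probe set is of a kind that can match several transcripts, and the other measured one gave 1.53-fold. Hoxa2, which patterns the hindbrain and the second pharyngeal arch, was at 34.6 against 26.2, 1.32-fold lower. Hoxa4 was below the floor on both arrays, and Hoxa6 had no probe set of its own.

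Antisense RNA of the Hoxa cluster differed from its sense partner. Hoxa11os, a noncoding gene that overlaps Hoxa11 in the RefSeq table, was at 541 in Venus-negative and 130 in Venus-positive cells, 4.16-fold lower, while Hoxa11 was 1.14-fold higher. The strand that each probe set reads was not tested here. Of the other Hox-named noncoding genes, Hoxb5os, which overlaps Hoxb5 and Hoxb6, was at 86.0 against 36.2, 2.37-fold lower, and Hoxd3os1 was at 32.2 against a signal below the floor, at least 1.43-fold lower. All 3 measured genes of this kind were thus lower, as was the median gene at -0.33. Hoxd3os1, measured through the Venus-negative array alone, could only come out so. Of the 3 genes, 2 were at least 2-fold lower, against 11.6% of all measured genes. Relative to the median gene Hoxa11os was past the 2-fold size, and Hoxb5os, at -0.92, was within it.

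The stretch before the Hoxa11 start is shown because the noncoding gene with the opposite ratio overlaps Hoxa11. It lies at chr6:52245811-52246060 on the minus strand (RefSeq, GRCm38.p6) and was searched for the same motifs.
Hoxa11: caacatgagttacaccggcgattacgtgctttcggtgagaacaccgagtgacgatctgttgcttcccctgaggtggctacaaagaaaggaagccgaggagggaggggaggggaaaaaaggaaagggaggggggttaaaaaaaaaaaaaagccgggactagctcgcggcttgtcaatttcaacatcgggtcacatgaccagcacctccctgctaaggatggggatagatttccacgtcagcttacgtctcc
It matched none of the 5 motifs, hence no capitals, and was 52.0% G and C with 13 CG dinucleotides.

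In the Hoxc cluster the 3 genes at least 2-fold lower, Hoxc4, Hoxc5 and Hoxc8, had numbers up to 8, and Hoxc9 and Hoxc10 lay above the median gene. Hoxc4, a gene of the neck, was at 162 in Venus-negative and 74.0 in Venus-positive cells, 2.19-fold lower. Hoxc5, beside it, was at 116 against a signal below the floor, at least 5.16-fold lower, and its other 2 probe sets were below the floor on both arrays. Hoxc6, a gene of the upper trunk, was at 39.7 against 28.6, 1.39-fold lower, with its other 2 probe sets below the floor. The probe set used for Hoxc6 is of a kind that can match several transcripts, and without that kind Hoxc6 was not measured. Hoxc8, which shapes the ribs of the lower chest, was at 129 against 44.3, 2.92-fold lower. The next genes toward the tail end had higher ratios. Hoxc9 was at 44.6 against 63.7, 1.43-fold higher, with a relative log2 ratio of 0.84. Hoxc10 was at 116 against 109, 1.07-fold lower and thus above the median gene by 0.24. Hoxc13, a gene of hair and nails, was at 37.9 against a signal below the floor, at least 1.68-fold lower. Hoxc11 and Hoxc12 had no probe set of their own.

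The Hoxb cluster, known mainly from the hindbrain, trunk and blood, held few measured genes, all lower. Hoxb3 was at 185 in Venus-negative and 28.9 in Venus-positive cells, 6.38-fold lower, the largest fold among the 19 members without a bound. Its second probe set was at 35.5 against a signal below the floor and gives only a bound of 1.58-fold. Hoxb2, a gene of the hindbrain, was at 66.1 against 40.1, 1.65-fold lower. The other 3 measured Hoxb genes were near the floor and give bounds. They were measured through the Venus-negative array alone, so that they could only come out lower. With Venus-positive signal below the floor, Hoxb4 was at 28.1 and at least 1.25-fold lower. Hoxb5 was at 35.1 and at least 1.56-fold lower. Hoxb9 was at 31.5 and at least 1.40-fold lower. Hoxb1, Hoxb6, Hoxb7 and Hoxb13 were below the floor on both arrays, with signals of at most 16.3, and Hoxb8 had no probe set of its own.

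Medians by cluster and by 3 ranges of position lay close together at the floor used. The median log2 ratio was -0.58 for Hoxa (8 measured genes), -0.64 for Hoxb (5), -0.75 for Hoxc (7) and -0.74 for Hoxd (7). The 2-fold lower genes numbered 1, 1, 3 and 3, against 11.6% of all measured genes. Hoxc5 and Hoxd12, within the counts of 3, were measured through the Venus-negative array alone. Relative to the median gene the counts were 0, 1, 2 and 1, against 6.45%. For paralog groups 1 to 4 the median was -0.72 over 7 genes, for groups 5 to 8 it was -0.64 over 7 and for groups 9 to 13 it was -0.74 over 13. Within the last range, groups 9 to 11 had a median of -0.48 over 9 genes and groups 12 and 13 one of -0.89 over 4. With the floor at the 75th percentile, where 12 members were measured, the medians lay further apart, at -0.81 for Hoxa and -0.10 for Hoxc, and at -0.91 for groups 9 to 13 and -0.10 for groups 5 to 8. From groups 9 to 13 the ratios ran from -1.98 for Hoxd13 to 0.64 for Hoxd9. Across the 27 genes Spearman's correlation between log2 ratio and paralog number was 0.05, and 0.08 over the 19 genes without a bound. The genes share the same 2 arrays, so this describes them and is not a test.

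In some paralog groups the members had unlike ratios. In group 9 Hoxc9 and Hoxd9 were higher in Venus-positive cells while Hoxa9 was 2.01-fold and Hoxb9 at least 1.40-fold lower. In group 3 Hoxb3 was 6.38-fold lower beside 1.83-fold for Hoxa3. In group 8 the values were 2.92-fold lower for Hoxc8 and 1.10-fold higher for the probe set used for Hoxd8. In group 5 Hoxc5 was at least 5.16-fold and Hoxa5 1.42-fold lower. The 3 measured genes of group 13 were all lower, of which Hoxd13 alone passed the 2-fold size. The others, Hoxa13 and Hoxc13, were bounds that could only come out lower, and group 1 had no measured gene. In group 2 the values were nearer each other, with 1.32-fold lower for Hoxa2 and 1.65-fold for Hoxb2. In group 10 they were 2.01-fold lower for Hoxd10, 1.75-fold for Hoxa10 and 1.07-fold for Hoxc10. In group 4 Hoxc4 was 2.19-fold and Hoxb4 at least 1.25-fold lower, and in group 11 Hoxd11 was 1.67-fold lower and Hoxa11 1.14-fold higher.

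Where a gene had several measured probe sets, which was the case for 7 members, they differed in size and once in sign. The log2 ratios of the 2 probe sets of Hoxa5 were within 0.01 of each other. Those of Hoxa3 differed by 0.26, of Hoxa10 by 0.41, of Hoxd13 by 0.63 and of Hoxa9 by 0.84. For Hoxb3 the difference was 2.02 and for Hoxd8 1.14. Values below the floor, which compress a ratio, entered the lower-signal probe sets of Hoxa10, Hoxb3 and Hoxd13. The pooled standard deviation between probe sets of 1 gene was 0.34 over the 5445 genes with several, which holds no error between samples.

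**Figure D4:**
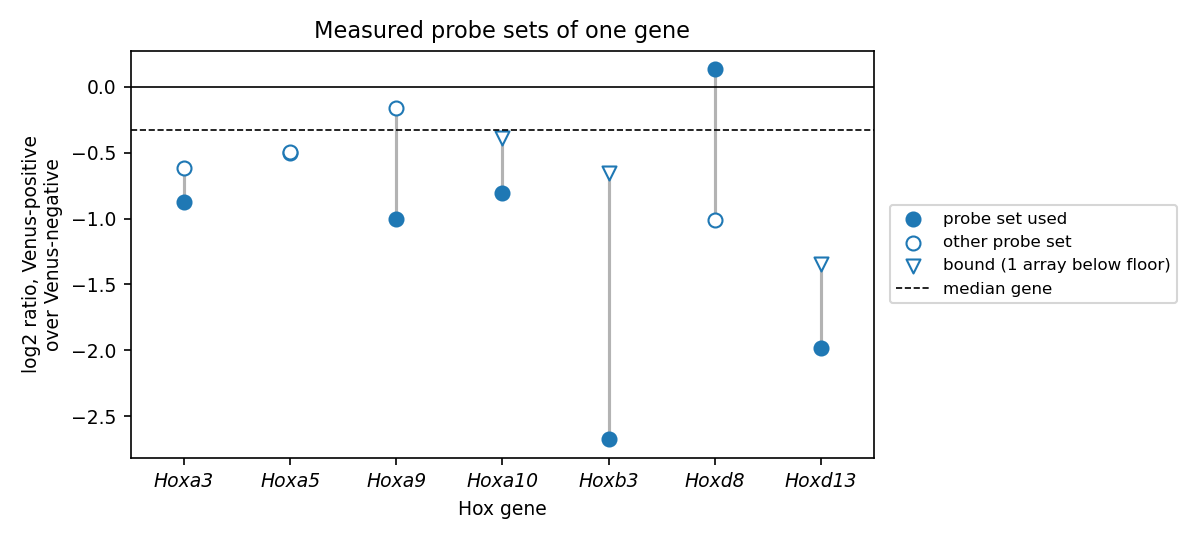
Log2 ratio, Venus-positive to Venus-negative (vertical), for each measured probe set of the 7 Hox genes that had several; filled symbols are the probe set that stands for the gene, triangles are bounds, and the dashed line is the median gene at -0.33. The pair of Hoxd8 spans 0, from -1.01 to 0.13, whereas both probe sets of Hoxd13 lie below -1.

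Proteins that bind DNA together with Hox factors were lower or near the median gene. Of 7 measured cofactor genes of the Meis, Pbx and Pknox families 2 were at least 2-fold lower and 0 higher, against 11.6% and 2.79% of all measured genes, with a median log2 ratio of -0.51 against -0.33 over all genes. Meis1, which marks proximal limb cells and binds beside Hox proteins, was at 235 in Venus-negative and 74.5 in Venus-positive cells, 3.16-fold lower, with a second probe set at a log2 ratio of -0.89. Meis2 was at 490 against 206, 2.38-fold lower, with its other probe sets down to -1.90. On the relative scale only Meis1 of these 7 genes passed 2-fold, though Meis3, with Venus-positive signal below the floor, cannot be placed. Among 12 other homeobox genes of the Evx, Cdx, Meox and related groups only 3 were measured. Meox2, a factor of somites and muscle precursors, was at 965 against 185, 5.20-fold lower, and Meox1, its relative of the somites, was at 114 against 29.6, 3.87-fold lower. Evx1, which lies beyond Hoxa13, was at 27.7 against a signal below the floor, and Cdx1, Cdx2 and Cdx4, activators of posterior Hox genes, were below the floor on both arrays.

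On the probe sets used, chromatin regulators of Hox genes stayed near the median gene. Of 29 measured genes of the Polycomb and trithorax groups, which keep Hox genes silent or active, 1 was at least 2-fold lower and 0 higher, against 11.6% and 2.79% of all measured genes, and the median on the relative scale was -0.07. That gene was Bmi1, a Polycomb subunit, at 745 against 345, 2.16-fold lower and within 2-fold relative to the median gene.

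Markers of other cell types that the Venus-negative fraction held were lower along with the Hox genes. In the neuronal and spinal cord list, a tissue rich in Hox RNA, 6 of 10 measured markers were at least 2-fold lower and 0 higher, against 11.6% and 2.79% of all measured genes. The summed signal of this list was 1216 in Venus-negative and 359 in Venus-positive cells. Chat, which marks motor neurons among other cells, was below the floor on both arrays. Against the same 11.6% and 2.79%, 6 of 8 in the fibroblast and perichondrial list were at least 2-fold lower and 0 higher, with summed signals of 22241 and 10384. In the skeletal muscle list 6 of 6 were at least 2-fold lower, against 11.6%, with 3897 and 293. In Venus-positive cells some markers of these 3 lists, such as Sox2, Dpt and Myh3, were below the floor and could only come out lower. Others, such as Nefl and Dcn, were above it. The part of these cell types in the Hox values was not tested.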

How the data were processed

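The deposited table gives linear intensities for both arrays, made by the authors in MAS5 according to the submitters' processing notes. Version, scaling target and detection calls were not given in the labels. Per the labels, 100 ng of total RNA per fraction was labelled with biotin. Groups were taken from the labelled cell type, with 1 array in each, so the number of arrays limits the precision. Of 45037 non-control probe sets, 34945 were paired with 1 symbol in the platform annotation, 932 with several and 9160 with none, and only the first kind was used. All 48 Hox probe sets had a gene identifier in the RefSeq table of GRCm38.p6 with an unchanged symbol.

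The floor was the median signal of the non-control probe sets, both arrays pooled. A gene was represented by its measured probe set of highest mean log2 signal, taken after the floor. Counts used a fixed size of 2-fold and are no tests. All measured Hox genes were named, and of each other list except the cell type markers the genes past 2-fold, at most 4. Named beyond that rule, after their values were seen, were Evx1, the Cdx genes, Meis3, Suz12, Ash2l, Men1, Chat, Hoxd3os1, Alx1, Tbx4, Tbx5 and Pitx1. The members and lists were chosen with earlier results of these data known. Alternatives were centring on the median gene, quantile normalization, a floor at the 25th or at the 75th percentile, log2(signal + 16) without a floor, averaging the probe sets of a gene, and dropping those whose names end in _x_at or _s_at. The procedure was tested on simulated data. Promoter windows came from RefSeq, where 22 listed genes were found. Python 3.11.15, numpy 2.4.6, pandas 2.3.3, scipy 1.17.1 and matplotlib 3.10.9 were used.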

Additional observations from a re-analysis of the deposited data

How the results depend on the processing

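The count of Hox genes at least 2-fold lower depended on the scale and the floor. It was 8 of 27 as reported, against 11.6% of all measured genes, and 4 of 27 relative to the median gene, against 6.45%. After quantile normalization it was 4 of 27, against 6.54%, and with log2(signal + 16) it was 5 of 27, against 10.6%. When the floor was the 25th percentile it was 14 of 33, against 16.1%, and when it was the 75th it was 3 of 12, against 6.39%. Hoxd13 was among the genes at least 2-fold lower under each of the 7 alternatives, and Hoxb3, Hoxc5 and Hoxc8 under all but the floor at the 75th percentile. At the lower of these floors 1 member, Hoxb7, was at least 2-fold higher, from signals below the main floor. Quantile normalization moved the median log2 ratio of the measured members to -0.28, with -0.20 for Hoxa, -0.28 for Hoxb, -0.30 for Hoxd, -0.28 for paralog groups 1 to 4, -0.21 for groups 5 to 8 and -0.30 for groups 9 to 13, as it gives both arrays the same distribution of signals. For Hoxc the median was -1.13 for a floor at the 25th and -0.10 with it at the 75th percentile, and for groups 5 to 8 it was -0.10 with the latter. These medians kept their sign in every alternative. Relative to the median gene Hoxc10 turned from below to above 0, and the bounds of Hoxa13, Hoxb4 and Hoxd3 came to lie above 0, which gives them no direction there; at the 25th percentile floor Hoxa13 was at -1.28 and Hoxd3 at -1.56. After quantile normalization Hoxa2 (0.06) and Hoxc10 (0.27) lay above 0, as did the bound of Hoxb4. Hoxd8 turned below 0, to -0.44, with the mean over probe sets. Dim members near the floor give bounds, which limits 8 of the 27.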

Other observations

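Genes that mark limb and body position, a list set beside the Hox genes, included lower and higher members. Among its 22 measured members 7 had at least 2-fold less signal in Venus-positive cells and 1 had more, against 11.6% and 2.79% of all measured genes. Relative to the median gene these were 5 and 3, against 6.45% and 5.06%. Among the higher genes, Barx1 and Alx1 were measured through the Venus-positive array alone, so they could only come out higher. Barx1 was also the gene higher on the deposited scale. The median log2 ratio of the list was -0.18 on the deposited scale and 0.15 relative to the median gene. Barx1, a homeobox gene of facial mesenchyme and joints, was at 106 in Venus-positive cells and below the floor in Venus-negative cells, at least 4.71-fold higher. Emx2, a gene of the shoulder blade, was 4.81-fold lower (125 against 25.9). Lhx2, a gene of the limb tip, was 3.84-fold lower (308 against 80.2), and Lmx1b, which sets the dorsal side of the limb, was 3.82-fold lower (115 against 30.1). The forelimb gene Tbx5 and the hindlimb genes Tbx4 and Pitx1 had signals on both arrays, with 227 against 142, 372 against 319 and 165 against 159.

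Non-Hox genes at the edges of the clusters had a median relative log2 ratio of -0.23 over 13 measured genes, of which 4 were at least 2-fold lower on the deposited scale, against 11.6% of all measured genes, and 0 relative to the median gene, against 6.45%. These were Skap2 beside Hoxa (2.42-fold), Snx11 near Hoxb (2.17-fold), and Lnpk (2.11-fold) and Mtx2 (2.01-fold) on either side of Hoxd. The 3 probe sets of Skap2 ranged in log2 ratio from -1.28 to -0.50.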
